A study of Bos taurus with 12 samples.

Results

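The genes examined here encode the receptors for glutamate and for gamma-aminobutyric acid (GABA), and the measurement was their DNA methylation in the blood of 12 dairy cows. Members were chosen by symbol. A deposited cytosine counted when it was not annotated as distal intergenic and its host gene was an ionotropic glutamate receptor (GRIA, GRID, GRIK or GRIN), a metabotropic glutamate receptor (GRM) or a GABA receptor (GABR or GABBR). This gave 362 sites in 29 genes, out of 216990 deposited sites, 92535 of them in gene features of 10773 genes. The rule used no measured value. The family has 49 matching symbols in RefSeq, and 20 of them, GRIN1, GRIN2A, GRIK2 and GRM8 among them, had no site under the rule. A further 10137 gene-feature sites carried no gene symbol and could not be assigned.

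The cows belonged to 1 herd, were raised alike and were 3 to 8 years old at sampling. The labels used here give no age for single cows, so the part of age in the group differences was not tested. The animal numbers in the sample titles were all lower in the fertile than in the subfertile cows, and their meaning is not explained. The 6 subfertile cows were removed from the herd in the year after blood was drawn, for reproductive problems that nobody had recognised at that time, and the 6 fertile cows remained and had none. Each cow gave 1 blood sample, whose DNA was converted enzymatically and sequenced. The reading does not separate 5-methylcytosine from 5-hydroxymethylcytosine, and each value is the percentage of reads at a cytosine that were read as methylated. The comparison asks whether methylation in blood differed before the fertility outcome was known.

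Glutamate is the main excitatory transmitter of the vertebrate brain and GABA the main inhibitory one. AMPA, kainate and NMDA receptors are glutamate-gated cation channels built from several subunits, delta receptors share their fold and act in synapse organisation, and metabotropic receptors signal through G proteins. GABA-A receptors are chloride channels of mixed subunits, and GABA-B receptors are G protein-coupled dimers. Most of these genes are known for their use in neurons rather than in blood cells, and no expression was measured in these cows.

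The deposited table was already a selection. Every site in it had an authors' difference of over 25 percentage points between the groups and an authors' q-value under 0.01, and among the members the absolute authors' difference ran from 25.02 to 54.6 points. The direction and size of a site's difference are therefore a description, and a p-value computed on these sites is not independent evidence. The table gives percentages without read numbers, so the depth behind each value is unknown and no interval for single values can be given. Of the 362 sites, 289 (79.8%) had a value in all 12 cows, and the share missing per cow ran from 0.552% to 5.52%. Cows labelled subfertile have column names that start with F and cows labelled fertile names that start with R. The letters are not explained, and if they meant the opposite of the labels every direction given here would turn. Whole blood mixes cell types, so a change in the share of a cell type and a change within cells cannot be told apart.

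Sites in the receptor genes were more often higher in the subfertile cows. Of the 362 sites, 240 had the higher mean in subfertile cows and 122 the lower, which is 66.3% higher (the exact 95% interval, which covers counting error alone and takes neighbouring sites as independent, was 61.2% to 71.2%). Over all gene-feature sites the share was 50.6%. Joining sites within 1 kb of each other left 247 clusters, of which 155 (62.8%) were higher. The lean did not rest on the genes with most sites, since without the 4 genes with most sites 111 of 176 sites (63.1%) were still higher. Counted by gene it was weaker. Of the 28 genes with a mean in all 12 cows, 16 (57.1%, exact 95% interval 37.2% to 75.5%) were higher and 12 lower. By receptor class the share was 85.7% of 7 GABA-B sites, 78.9% of 38 NMDA sites, 64.2% of 53 kainate sites, 54.5% of 55 AMPA sites and 44.7% of 47 GABA-A sites. Of these classes GABA-A had more sites lower than higher, and the shares of the delta and metabotropic classes are not reported here.

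**Figure D1:**
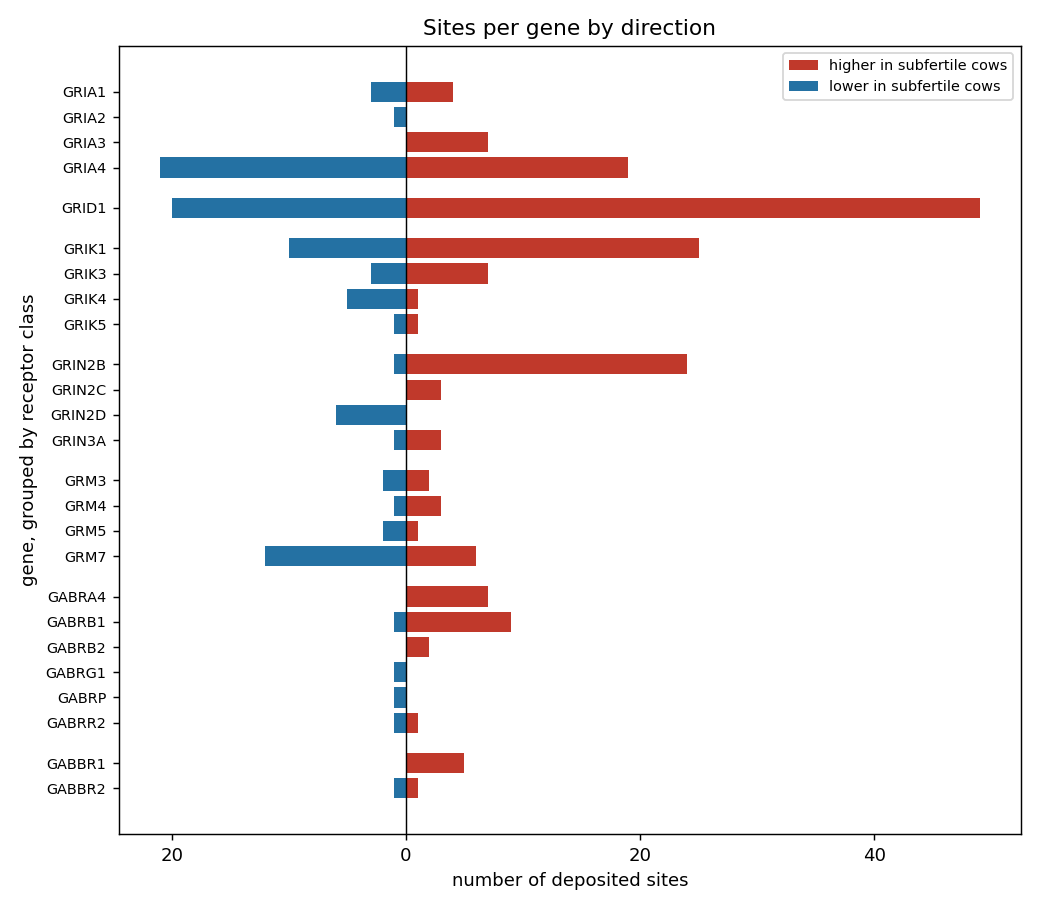
Number of deposited sites in each of 25 receptor genes (horizontal axis), with bars to the right for sites whose mean was higher in the 6 subfertile cows and bars to the left for sites whose mean was lower. GRIA3, GRIN2C, GRIN2D, GABRA4 and GABBR1 have all their sites on 1 side, while GRIA4 splits into 19 higher and 21 lower.

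Averaged per gene and cow, no receptor gene passed an adjusted p of 0.05 (limma on logit-like log2 ratios, adjusted over 9891 genes), where 0.121% of all genes did. GABRP, the GABA-A pi subunit, had no value in fertile cow 5 and was not tested, which left 28 members. Without adjustment, 11 of 28 (39.3%) had p under 0.05, and the background among all genes was 40.6%, so the share was near that of the selected table as a whole. Split by direction, 10 of the 28 (35.7%, exact 95% interval 18.6% to 55.9%) had such a p and the higher mean in subfertile cows, against 21.6% of all genes. A further 1 of the 28 (3.57%) had the lower mean, against 18.9% of all genes. The median difference of gene means was 8.86 percentage points in the members and 1.78 over all genes tested, and the median absolute difference was 20.2 against 26.4. Site numbers were unlike, with at least 3 sites in 22 of the 28 members and in 5575 of the 9891 genes. Sites of opposite direction cancel in a gene mean, and the part of site number in these medians was not tested. The smallest adjusted p among members was 0.0577, for GABRB2.

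**Figure D2:**
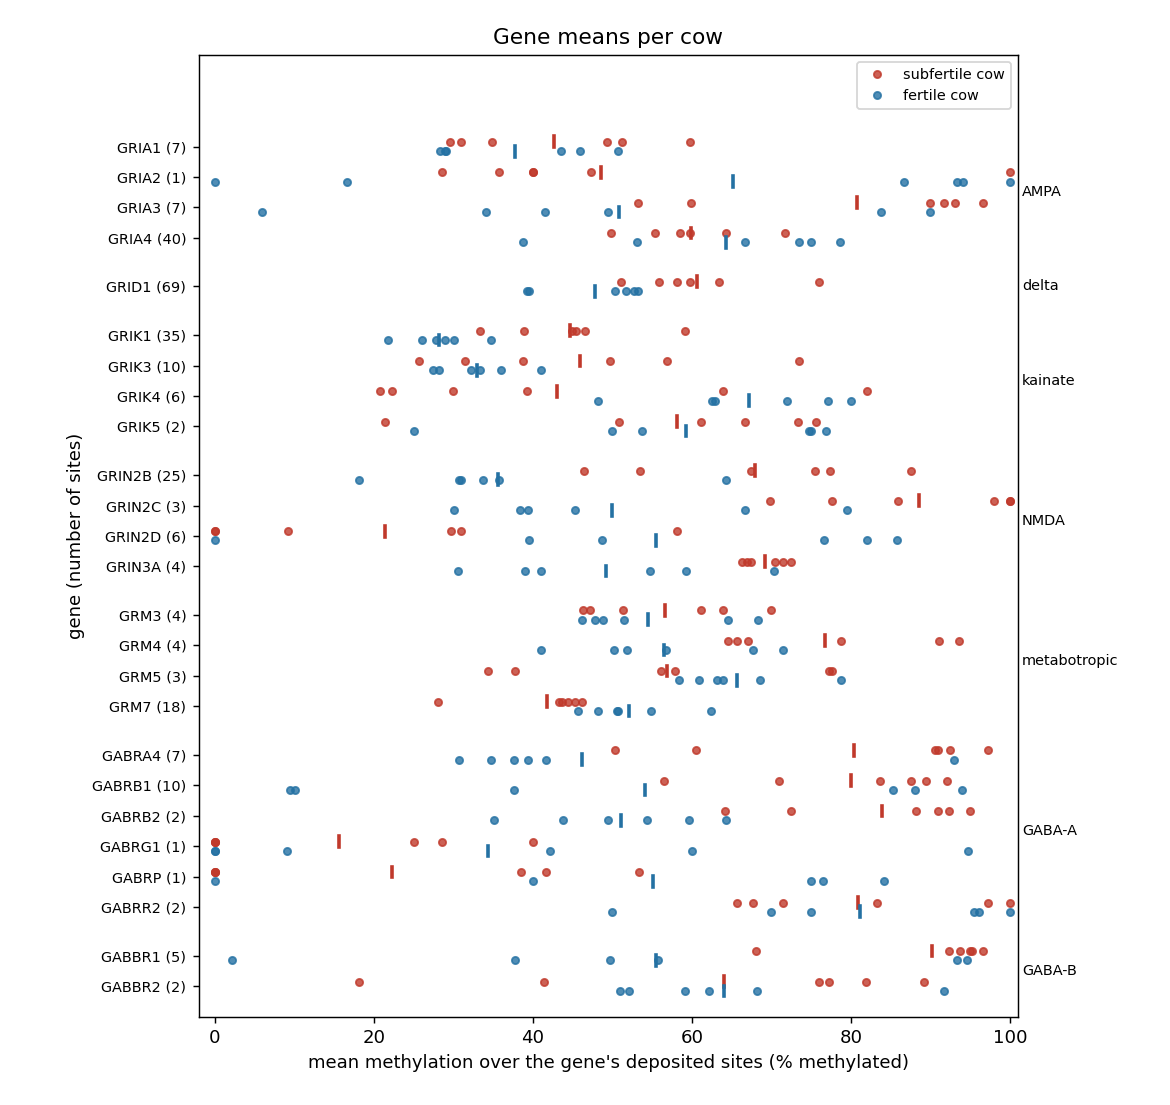
Mean methylation over the deposited sites of each of 25 genes (horizontal axis, percent methylated) in each cow, with points for cows, a vertical bar for each group's mean and the number of sites in brackets. In GRIN2B and GRIK1 the subfertile cows lie mostly above the fertile cows, while in GRIN2D and GABRB1 the fertile cows spread over most of the scale.

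The member sites lay almost wholly in introns. Of 362, 354 (97.8%) were intronic, 5 exonic and 3 in promoters, against 83.2%, 2.57% and 13% of all gene-feature sites. The first intron held 77 of the 354 intronic sites (21.8%), against 25.1% of all intronic sites. For 159 sites the nearest gene start was that of another gene. Positions are in the ARS-UCD1.2 assembly, and introns are numbered as in the deposited annotation.

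AMPA receptors carry fast excitatory transmission, and their 4 subunit genes held 55 sites. GRIA4 on chromosome 15 held 40 of them, and its sites ran in opposite directions in neighbouring introns. In intron 3 of 9, 15 sites over 147 kb (chr15:2079424-2226325) were all lower in subfertile cows. Their mean per cow had its lowest value at 0%, its median at 26.3% and its highest at 45.0% in subfertile cows, and 48.4%, 52.0% and 84.8% in fertile cows. The groups did not overlap in this mean, although they overlapped at every single GRIA4 site. Subfertile cows 1 and 6 were at or near 0. The intron was picked after its values were seen, and the share of such intron means over all genes was not counted. In intron 2, 18 of 24 sites were higher, with 82.0% ± 13.9 (SD, n = 6) in subfertile and 68.0% ± 27.2 (n = 6) in fertile cows. The gene mean joined both directions and came to 59.9% ± 7.52 against 64.3% ± 15.4, with an adjusted p of 0.618 in limma.

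A cluster of 6 sites within 31 bases of GRIA4 intron 2 (chr15:2294961-2294991) shows how single cows set a mean. The subfertile cows were between 92.8% and 99.2% except for cow 3 at 43.4%. The fertile cows stood at 61.6%, 86.8%, 0%, 86.6%, 97.3% and 47.0%, so that 5 of 6 lay within the subfertile range. Each of these 6 sites spanned from under 10% in some cow to over 80% in another.

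GRIA3, the X-linked AMPA subunit, had all 7 sites higher in subfertile cows. Its mean per cow was 53.3% at the lowest, 90.8% at the median and 96.5% at the highest in subfertile cows, against 5.88%, 45.5% and 90.01% in fertile cows. The difference was 29.96 points with an adjusted p of 0.125 (limma), and the ranges overlapped. At 1 of its sites, in intron 3 of 15 (chrX:7599451), the groups were apart, with 87.5% to 95.5% in subfertile and 36.4% to 85.7% in fertile cows. GRIA1 had 7 sites, 4 of them higher, and means of 42.6% ± 12.5 and 37.8% ± 10.1 (n = 6 each, adjusted p = 0.612 in limma). Its difference of 4.85 points ran from 1.41 (without subfertile cow 3) to 7.47 (without subfertile cow 2) with 1 cow left out, and turned to -1.37 when sites within 1 kb were averaged first. GRIA2, whose RNA editing governs calcium entry through AMPA channels, had 1 site, at 48.6% ± 25.9 and 65.1% ± 44.5.

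GRID1, a delta receptor, had 69 sites on chromosome 28, the most of any member, and 68 of them lay nearest to the start of another gene. Of these 69, 49 were higher in subfertile cows and 20 lower. The gene mean ran from 51.1% through 58.9% to 76.0% in subfertile cows and from 39.3% through 51.0% to 53.3% in fertile cows, so the groups met only between 51.1% and 53.3%. The difference was 12.9 points (adjusted p = 0.153, limma). In intron 1 all 14 sites were higher, at 53.3% ± 27.1 against 25.6% ± 15.2, whereas in intron 4 it was 5 of 10, at 68.6% ± 11.2 against 69.5% ± 12.8. A run of 4 sites within 83 bases of intron 12 (chr28:40476743-40476825) stood at 87.5% ± 13.0 and 47.8% ± 16.5. At chr28:40634028 in intron 6 no cow overlapped, with 50% to 75% in subfertile and 11.1% to 43.8% in fertile cows.

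Kainate receptors modulate transmission on both sides of the synapse, and 4 of their genes held 53 sites. GRIK1 had 35 sites, 25 of them higher in subfertile cows. Its mean ran from 33.4% through 45.1% to 59.1% in subfertile cows and from 21.7% through 28.4% to 34.7% in fertile cows. Only the lowest subfertile and the highest fertile values crossed. The difference was 16.5 points (log2 ratio difference 0.932, SE 0.353, unadjusted p = 0.0209, adjusted p = 0.0920, limma).

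Most GRIK1 sites, 31 of 35, lay in intron 1 of 15. The cluster with most sites in any member was here, 12 sites in 2608 bases (chr1:6228099-6230706), all higher in subfertile cows. The subfertile cows averaged 43.7%, 53.2%, 48.9%, 0%, 42.2% and 89.0% over this stretch. The fertile cows averaged 0% in 5 of 6, and fertile cow 3 averaged 47.9%. The stretch was thus at 0% in 6 cows, 1 of them subfertile, and 5 of the others lay between 42.2% and 53.2%. A promoter site of GRIK1 (chr1:6110382) averaged 39.5% and 7.91%.

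GRIK4, a high-affinity kainate subunit, had 5 of 6 sites lower. Its mean ran from 20.7% through 34.6% to 82.1% in subfertile cows and from 48.2% through 67.5% to 80.04% in fertile cows. The difference was -24.1 points (adjusted p = 0.134, limma) and the groups overlapped. Of its sites, 4 lay within 26 bases of intron 11 (chr15:31525403-31525428), as both strands of 2 CpGs. The 1 higher site was the only one left after sites spanning under 10% to over 80% were removed, and the difference then turned to 28.3 points. GRIK3 had 7 of 10 sites higher, at 46.0% ± 17.7 and 33.03% ± 5.06 (adjusted p = 0.233, limma). GRIK5 had 1 higher and 1 lower site, at 58.2% ± 20.1 and 59.2% ± 20.4.

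NMDA receptors detect coincident activity and admit calcium, and 30 of the 38 sites in their 4 genes were higher in subfertile cows. GRIN2B, which sets the slow kinetics of early NMDA receptors, had 24 of 25 sites higher. Its mean ran from 46.5% through 71.4% to 87.5% in subfertile cows and from 18.1% through 32.4% to 64.3% in fertile cows. A single fertile cow, cow 2, lay within the subfertile range. The difference was 32.3 points (log2 ratio difference 1.87, SE 0.557, unadjusted p = 0.00534, adjusted p = 0.0714, limma). Of its sites, 16 spread over 107 kb of intron 1 at 70.6% ± 16.9 and 37.7% ± 23.5, and 6 lay in intron 8 at 63.1% ± 15.6 and 32.2% ± 29.1. Both introns thus differed in the same direction.

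GRIN2C had 3 sites, all higher, and the largest difference of gene means among the members, 38.7 points. It ran from 69.8% through 92% to 100% in subfertile cows and from 30.1% through 42.4% to 79.5% in fertile cows (unadjusted p = 0.00161, adjusted p = 0.0614, limma). A pair of its sites, at chr19:56560933 and chr19:56560934, were the 2 strands of 1 CpG in exon 2. GRIN2D, on chromosome 18, went the other way at all 6 sites, from 0% through 19.5% to 58.1% against 0% through 62.7% to 85.8%. That was a difference of -34.1 points (adjusted p = 0.150, limma). GRIN3A, whose subunit lowers calcium entry, had 3 of 4 sites higher, at 69.2% ± 2.61 and 49.2% ± 14.8 (adjusted p = 0.0930, limma).

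Metabotropic receptors tune transmission more slowly than the channels. GRM7, a presynaptic receptor that inhibits release, had 12 of 18 sites lower in subfertile cows. Its mean ran from 28.0% through 44.1% to 46.2% in subfertile cows and from 45.6% through 50.6% to 62.4% in fertile cows. Only a narrow band from 45.6% to 46.2% was shared, but the difference of -10.3 points had an adjusted p of 0.207 in limma. In intron 1 of 9, 7 of 8 sites were lower. The means of these 8, at 0% to 31.2% against 31.6% to 60.2%, did not overlap. At each of these sites alone the groups overlapped, and the share of such intron means over all genes was not counted. Without sites spanning under 10% to over 80% the difference of the gene became 1.83 points over 4 sites.

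GRM4, another inhibitory presynaptic receptor, had 3 of 4 sites higher. It ran from 64.6% through 72.9% to 93.6% in subfertile cows and from 41.0% through 54.2% to 71.4% in fertile cows, a difference of 20.3 points (adjusted p = 0.0983, limma). Its exon 4 site (chr23:8177955) stood at 97.4% ± 4.06 and 60.8% ± 28.0. GRM3 had 2 of 4 sites higher, at 56.6% ± 9.70 and 54.5% ± 9.45 (adjusted p = 0.822, limma). GRM5, which couples to phospholipase C, had 1 of 3 sites higher, at 56.8% ± 18.6 and 65.6% ± 7.29.

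GABA-A receptor genes ran in both directions. GABRG1, a gamma subunit, had 1 lower site, at 15.6% ± 17.8 and 34.3% ± 38.4, and GABRP 1 lower site, at 22.2% ± 24.9 (n = 6) and 55.1% ± 35.2 (n = 5). GABRR2, a rho subunit, had 1 higher and 1 lower site, at 80.9% ± 15.1 and 81.1% ± 19.6.

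On chromosome 6, GABRA4 and GABRB1 leaned towards higher values. GABRA4, an alpha subunit of extrasynaptic receptors, had all 7 sites higher, from 50.3% through 90.8% to 97.3% in subfertile cows and from 30.7% through 38.5% to 92.9% in fertile cows. The difference was 34.2 points (unadjusted p = 0.0202, adjusted p = 0.0910, limma), and 5 of 6 fertile cows lay under every subfertile cow. GABRB1 had 9 of 10 sites higher, at 80.02% ± 13.7 and 54.1% ± 39.8 (adjusted p = 0.229, limma). It turned to -24.2 points when sites spanning under 10% to over 80% were left out, which kept 1 site. In its intron 8 the mean of 5 sites ran from 53.4% to 90.9% in subfertile cows and from 0% to 92.4% in fertile cows.

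**Figure D3:**
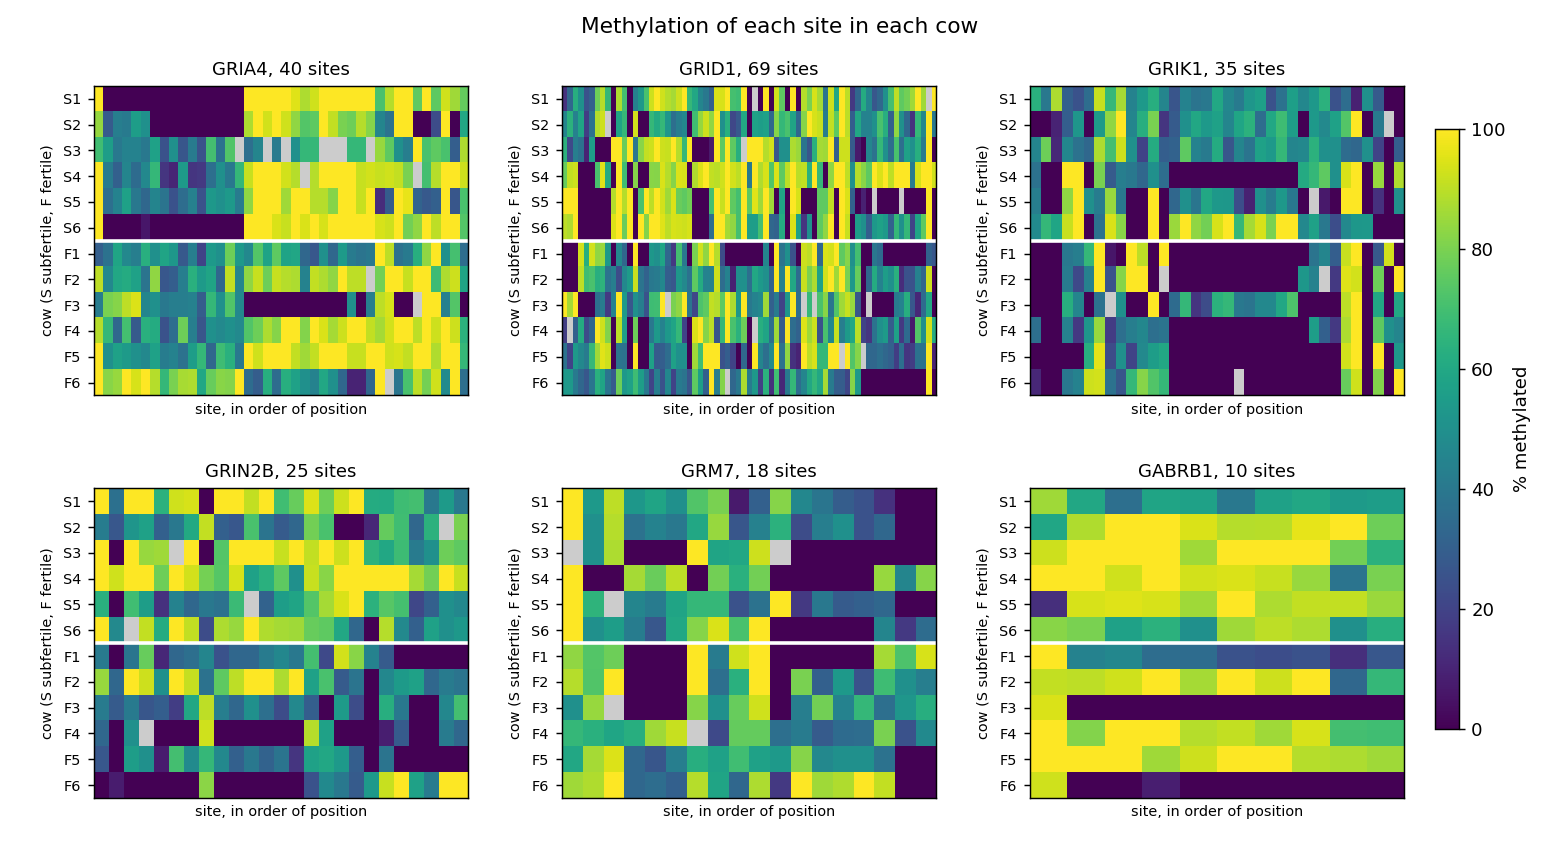
Percent methylated (colour) at each site in order of position (horizontal) in each cow (vertical, subfertile cows S1 to S6 above the white line and fertile cows F1 to F6 under it) for 6 genes, grey where the table gives no value. GRIK1 shows a stretch at 0 in some cows and near the middle of the scale in others, and GRIA4 shows 2 neighbouring stretches of opposite direction.

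GABRB2, on chromosome 7, rested on 2 sites and had the smallest p of the members. It ran from 64.1% through 89.6% to 94.9% in subfertile cows and from 35.1% through 51.9% to 64.3% in fertile cows. The highest fertile cow lay just above the lowest subfertile cow. The difference was 32.7 points (log2 ratio difference 2.19, SE 0.517, unadjusted p = 0.00104, adjusted p = 0.0577, limma). At 1 of the sites, in intron 1 of 6 (chr7:73204803), the groups were apart, with 72.7% to 95.5% against 41.7% to 70%.

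GABA-B receptors need both subunits to signal. GABBR1 had all 5 sites higher, from 68.1% through 94.3% to 96.7% in subfertile cows and from 2.22% through 52.7% to 94.5% in fertile cows. The difference was 34.6 points (unadjusted p = 0.0337, adjusted p = 0.108, limma), and fertile cows 1 and 5 lay within the subfertile range. GABBR2 had 1 higher and 1 lower site and means of 64.0% ± 27.9 and 64.0% ± 14.97.

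Single sites with no overlap between groups numbered 8 of 362 (2.21%), where the background was 2.93%. All 8 were higher in subfertile cows, and the background for that direction was 1.73%. GRID1 (2 sites), GRIA1, GRIA3, GRM7 and GABRB2 were among their genes, and 5 had values in all 12 cows. The largest of the 8 differences was 47.5 points at a GRIA1 site in intron 12 (chr7:65080021), which lacked subfertile cow 1. Over the 2 sites of its cluster (chr7:65080021-65080139) the groups overlapped, with subfertile cow 1 at 0% from the neighbouring site alone.

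Many member sites spanned nearly the whole scale among the 12 cows. At 235 of 362 (64.9%) the lowest cow was under 10% while the highest was over 80%, against 69.7% of all gene-feature sites. No DNA sequence variants of the cows were examined, and the part of sequence differences between cows in these values was not tested. Of the 4267 member values, 22.0% were exactly 0, 34.4% lay from 30% to 70% and 20.4% lay over 90%, against 20.5%, 31.6% and 29.3% over all gene features. When the wide-ranging sites were left out, 11 of 23 members passed an adjusted p of 0.05 in limma (47.8%), and so did 42.2% of all genes, so the share was again near the background. That choice removes sites by their spread among the same cows. Among the 11, with the sites left in brackets, GRIN2B (2), GABRB2 (2), GRID1 (21), GRM4 (2), GRIK1 (12), GRIA3 (1) and GRIK4 (1) were higher in subfertile cows. GRM5 (2) and GABBR2 (1) were lower. Most of these calls thus rested on 1 or 2 sites of the gene.

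Repeat measurement of a CpG was available where both of its strands were deposited, at 46 CpGs in 13 member genes. The strands of 1 cow differed by a median of 5.41 percentage points over 538 pairs of values, and 2 cows of a group differed by a median of 23.1. The SD of a single value from the strands was 9.97 points. The strands correlated at r = 0.926 over these pairs, which share the cow, the library and the fragment pool. All gene-feature sites gave 5.56, 22.2 and 9.66 points. The median difference between cows of a group was thus wider than that between strands.

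Sites of a gene moved together over short distances. After subtracting group means, the median absolute correlation across the 12 cows was 0.895 for 33 pairs of strands, 0.875 for 107 pairs of sites up to 1 kb apart and 0.727 for 388 pairs 1 to 10 kb apart. It was 0.448 for 1111 pairs 10 to 100 kb apart, 0.325 for 1982 pairs farther apart and 0.229 for 37000 pairs on different chromosomes, the level seen here with 12 cows and no shared position. Sites of a gene that lie close together are therefore not separate observations, and at a joining distance of 1 kb the 35 sites of GRIK1 formed 22 clusters and the 25 of GRIN2B formed 17. Of the 10 members with at least 10 sites, 5 had at least 85% of sites in 1 direction, and among all genes of that size the share was 35.5%. GRIN2B and GABRB1 were among these 5, and the limit of 85% was chosen after these values were seen.

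**Figure D4:**
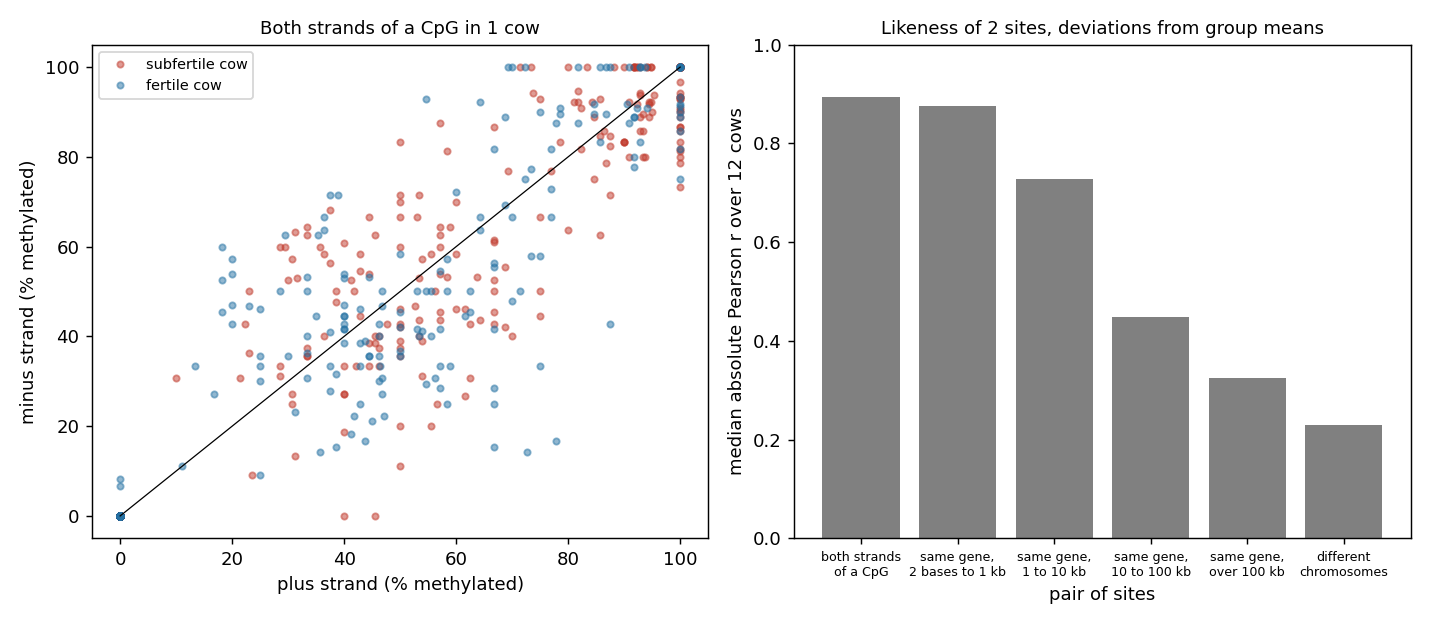
Left, percent methylated on the minus strand against the plus strand of the same CpG in the same cow for 538 pairs, with the line of equality. Right, median absolute Pearson r across 12 cows, on deviations from group means, for pairs of member sites by distance, falling from 0.895 for strands of a CpG to 0.229 for sites on different chromosomes.

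Of the 71 other genes listed for transport, metabolism, scaffolding and auxiliary subunits of these receptors, 41 had sites, 595 in all, with the higher mean in subfertile cows at 262 (44.0%). Of 40 genes tested, GLUD1, the glutamate dehydrogenase that feeds glutamate into the citric acid cycle, passed (0.121% of all genes did). It rested on 1 site (chr28:41640492), at 90% to 100% in subfertile and 44.4% to 76.2% in fertile cows (97.4% ± 4.26 and 67.6% ± 11.6, adjusted p = 0.0336, limma), and the call was lost when subfertile cow 3, 5 or 6 or fertile cow 1, 2 or 4 was left out. Without adjustment 14 of the 40 (35%) had p under 0.05, against 40.6% of all genes, and 12 (30%) were higher, against 21.6%. Among the genes with most sites, SHANK2, a postsynaptic scaffold, had 48 of 143 sites higher and means of 46.7% ± 7.78 and 59.9% ± 6.67 (adjusted p = 0.143, limma). GPHN, the gephyrin that anchors GABA-A receptors, had 7 of 59 sites higher and means of 43.1% ± 30.6 and 74.4% ± 18.9 (adjusted p = 0.135, limma). NRXN3 had 31 of 81, DLG2 23 of 52 and NLGN1 30 of 50 sites higher, with adjusted p values of 0.319, 0.748 and 0.283 in limma.

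The identity of the tissue could not be checked by markers, since a table selected for a difference does not give a gene's usual level. Of 31 blood cell marker genes listed, 14 had sites, 121 of 159 of them higher in subfertile cows (76.1%, against 50.6% of all gene-feature sites). None of the 13 tested passed the adjusted threshold in limma, and 8 (61.5%) had an unadjusted p under 0.05, 3 of these higher (23.1% of the 13), against 40.6% and 21.6% of all genes. The median difference of their gene means was -5.94 points, opposite in sign to the share of sites. The part of cell composition in the receptor gene values was not tested.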

How the data were processed

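The deposited table holds 1 row per cytosine and 1 column per cow. Per the submitters' processing notes the tools named include fastp 0.23.1, Bismark, DRAGEN and ChIPseeker 1.32.1, with assembly ARS-UCD1.2. For the test behind the q-values and for any read minimum, no statement was found (not given in the sources used here). Deposited methylation values are percent per site and cow, and the authors' q-value and difference per site were used only to describe the selection. Gene names came from the deposited annotation, and RefSeq symbols (ARS-UCD2.0) were used only to count the family.

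Percentages were averaged per gene and cow over sites with a value. The ratio log2((percent + 5)/(100 - percent + 5)) was fitted with limma 3.58.1 (R 4.3.3) over 9891 genes with a mean in all 12 cows, without covariates, and adjusted by Benjamini-Hochberg. A model of reads had been planned, but the table holds percentages only. The fit was checked on simulated data, made from shuffled residuals of these genes with known shifts. That simulation had no selection of sites by group difference, so it does not cover the p-values of this selected table. Cows are separate animals, numbered in accession order.

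Members and lists were chosen with earlier results of these data known. Genes named by rule were those past the threshold, those without overlap, the 3 with most sites per class and, with at least 3 sites, the 3 highest and 3 lowest differences. GABRB2, GABRG1, GABRP, GABRR2, GRIA2, GRIK5 and GRM5, and introns and clusters, were named after their values were seen. Results for some genes of the family are not reported here. Alternatives are given in the closing section.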

Additional observations from a re-analysis of the deposited data

Results flagged for a closer look

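In 36 groups of 6 gene means (18 named genes in each group of cows), 3 had a cow whose distance to its nearest neighbour exceeded Dixon's 95% limit, where chance gives about 1 in 20. In GABRA4, fertile cow 2 was at 92.9% with the nearest at 41.7%. In GABBR1, subfertile cow 6 was at 68.1% with the nearest at 92.4%, and in GRM7, subfertile cow 3 was at 28.0% with the nearest at 43.3%.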

How the results depend on the processing

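The count of receptor genes past the adjusted threshold (limma) was 0 with 1 percentage point added, plain percentages, sites within 1 kb averaged, complete sites, genes with at least 3 sites, the nearest gene, q at most 0.001, autosomes and any 1 cow left out. It was 11 of 23 without sites spanning under 10% to over 80% and 6 of 12 with an absolute difference of at least 40 points, where 42.2% and 43.7% of all genes passed. Under the same 2 choices 74.8% and 83.3% of member sites were higher, against 52.6% and 49.4% of all gene-feature sites, and under the first 4.72% did not overlap, against 5.23%. The count over all genes, 12, became 21 with 1 point added, 5 on plain percentages, 2401 without wide-ranging sites, 80 with at least 3 sites, 1633 at 40 points and 67 at q of 0.001. Leaving out 1 cow gave 5 (fertile cow 1) to 65 (subfertile cow 4), and 20, 24, 20, 31 and 28 without subfertile cows 1 and 2 and fertile cows 2, 3 and 5. The other pathway genes, 1 called, gave 0 on plain percentages and with at least 3 sites, 12 without wide-ranging sites, 3 at 40 points, and 0 to 1 with a cow left out. With a cow left out, 2.49% to 6.08% of member sites did not overlap (alternatives added after seeing the data), the highest without fertile cow 2, against 4.38% to 4.94% of all gene-feature sites.

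The difference of gene means reversed for GABRB1 (-24.2 without wide-ranging sites and by nearest gene), GRIA1 (-1.37 with sites within 1 kb averaged, -1.18 with complete sites, -1.30 by nearest gene), GRIK4 (28.3) and GRM7 (1.83) without wide-ranging sites, GABBR2 (-5.08 to 9.12 with a cow left out) and GRM3 (-0.562 to 4.85 with a cow left out). The causes were not tested. With a cow left out, the difference also moved by over 1.5 times without reversing in GRIA1 (1.41 to 7.47), GRIA4 (-9.46 to -1.50), GRIK3 (7.45 to 17.01) and GABRB1 (17.02 to 33.9). Of the values per gene under an alternative, 356 kept direction and side of the threshold, 11 passed it and 12 reversed. No paired analysis was possible because the replicate numbers only follow the accession order. Unknown read depth limits every single-cow value.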

Other observations

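Outside the genes, 243 distal intergenic sites had a receptor gene as the nearest gene start, in 25 genes, and 168 of them (69.1%) were higher in subfertile cows, against 53.2% of all distal intergenic sites. Groups did not overlap at 4 of these sites (1.65%), against 3.23%.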
